A study of Mus musculus with 17 samples.

Results

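The nuclear genes of the mitochondrial translation machinery were followed across mouse mammary tumours that lack Rb and p53, tumours that lack p53 alone, and normal mammary tissue. The members were all genes whose symbol is Mrpl or Mrps followed by a digit (the proteins of the large and small subunits of the mitochondrial ribosome), together with the elongation factors Tufm, Tsfm, Gfm1 and Gfm2, the initiation factors Mtif2 and Mtif3 and the release factor Mtrf1. A gene entered where the array has a probe set annotated to its symbol alone, and the probe set with the highest mean over the arrays stood for it. This gave 84 of the 19938 genes measured, of which 48 carry a large subunit symbol, 29 a small subunit symbol and 7 are translation factors. Of the 85 genes listed by RefSeq under the same rule, Mrpl53 was the 1 without such a probe set, since the only probe set that names it also names Ccdc142.

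Mitochondria keep their own ribosomes, which translate only the few messenger RNAs of the mitochondrial genome, all of them for subunits of the respiratory chain and the ATP synthase. Every protein of these ribosomes and every translation factor is encoded in the nucleus, made in the cytosol and imported. A symbol does not always give the place of a protein in the particle: the Mrps30 and Mrps18a products are found in the large subunit, the Mrps36 product is known as a component of the 2-oxoglutarate dehydrogenase complex, and the Mrpl58 product, also known as Ict1, is a peptidyl-tRNA hydrolase that rescues stalled ribosomes.

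Total RNA from 12 independent primary tumours and from 5 pieces of normal mammary gland, with a mixed strain background throughout, was hybridised to Affymetrix Mouse Gene 1.0 ST arrays. The series compares these groups, and whether mitochondrial translation genes are higher in tumours without Rb and p53 than in tumours without p53 alone is a question that has been asked of this model. The Rb/p53 tumours numbered 9. In 7 of them both genes were deleted by MMTV-Cre, a Cre recombinase driven by the mouse mammary tumour virus promoter, which is active mainly in mammary epithelium; the mouse of replicate 1 was nulliparous, that of replicate 2 parous, and replicates 3 to 7 are labelled as transplants. In the other 2 deletion was by Ad-CMVcre, an adenovirus that carries Cre behind the cytomegalovirus promoter, and both are transplants. In the 3 p53 tumours MMTV-Cre deleted p53, and none of them is labelled as a transplant. Most Rb/p53 tumours are transplants, so genotype and transplantation are mixed in the comparison of the tumour types. The 5 normal samples were taken from Rbp53 mice. Their titles carry 5 different identifiers of the MCRP series, as do those of Rb/p53 replicates 1 and 2, but the labels do not say whether they carried Cre. The sources used here do not give the exact alleles, the ages or the hosts of the transplants. Each tumour is labelled as independent, but the labels do not say that every normal sample is from a different mouse, so the p-values here reflect only how these samples vary.

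The labels of p53 replicate 3 disagree, since its title names the Rbp53 model and its description, source and tissue name a p53 tumour. Its title also carries an identifier of the MCRP series, while those of p53 replicates 1 and 2 are of another series. It was kept as a p53 tumour. Rb1, the gene for the retinoblastoma protein, was measured at 9.29 to 9.92 on the 9 Rb/p53 arrays, at 9.93, 10.999 and 10.27 on p53 arrays 1 to 3, and at 10.93 to 11.504 on the normal arrays (log2 units, as are all levels and differences here). The library labelled p53 replicate 3 thus lay above every Rb/p53 array, but p53 replicate 1, at 9.93, lay only just above the highest of them, at 9.92. The probe set also averages over the whole transcript and may hold exons outside the deleted part, so these levels do not settle the label. Array p53 replicate 2 stood apart from the rest. Its correlation with the other arrays over all probe sets was 0.888 to 0.915, against at least 0.929 between any other pair, and its interquartile range was 2.39 against 2.91 to 3.18. On that array the mean of 3 T cell markers (Cd3e, Cd3g, Cd8a) was 9.22, against 6.91 to 8.19 on the other tumour arrays, the mean of 4 macrophage markers was 12.83 against 10.97 to 12.18, and the mean of 3 division markers (Mki67, Top2a, Prc1) was 8.71 against 10.47 to 11.32. It was also the lowest tumour array for the means of luminal (7.97), endothelial (8.61) and fibroblast markers (11.24). For basal markers it was the highest, at 9.44, just above Rb/p53 MMTV-Cre replicate 1, at 9.42. The part of these differences in the results below was not tested, and the counts and several of the values are given with and without p53 replicates 2 and 3.

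Most members gave more signal than the middle gene of the array. Their mean levels ran from 7.23 for Mtrf1, the release factor, to 11.73 for Mrps21, with a median of 9.60, and 77 of 84 (91.7%) lay above the median gene, which was at 8.27. None of the 1428 member values fell below 6.37, the lowest 25th percentile of any array. A level of one probe set cannot be set against that of another as an amount of RNA, so these figures say only that the probe sets gave signal. Among the 9 Rb/p53 tumours the median member had an SD of 0.19, equal to that of all genes to 2 decimals, with Mrpl30 the steadiest (SD 0.09) and Mrpl47 the most variable (SD 0.49). Among the 5 normal samples the median member SD was 0.23, against 0.15 for all genes. The genes are spread over 17 chromosomes, with the most, 12, on chromosome 11 and 8 on chromosome 17.

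Averaged over all 84 genes, the level was 9.49 to 9.74 in the 9 Rb/p53 tumours, 9.56, 9.01 and 9.57 in p53 tumours 1 to 3, and 9.45, 9.71, 9.74, 9.38 and 9.42 in normal samples 1 to 5. P53 replicate 2 was thus the lowest array by a wide gap, while p53 replicates 1 and 3 lay inside the range of the Rb/p53 tumours. Normal samples 2 and 3 lay near the top of that range, and normal samples 1, 4 and 5 lay below every Rb/p53 tumour. As the plot of mean level by role shows, p53 replicate 2 was the lowest array for each role. It was at 9.22 for large subunit genes (every other array at 9.54 or more), 8.83 for small subunit genes (9.23 or more) and 8.29 for the factors (8.85 or more). The place of the normal samples differed by role. For small subunit genes normal sample 1, at 9.33, lay above the lowest Rb/p53 tumour, at 9.31. For the factors every normal sample, at 8.89 or more, lay above the lowest Rb/p53 tumour, at 8.85. Of the 84 members, 48 (57.1%) had their lowest value of all 17 arrays on p53 replicate 2, and 1 (1.19%) its highest. Over all genes that array was lowest for 21.4% and highest for 31.1%. Most members gave more signal than the median gene, and the values of that array have a narrow spread. The share among genes of like level was not counted, so the contrast with all genes may not be particular to the members. In whole tissue, fewer cells of a type and less RNA per cell cannot be told apart.

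**Figure D1:**
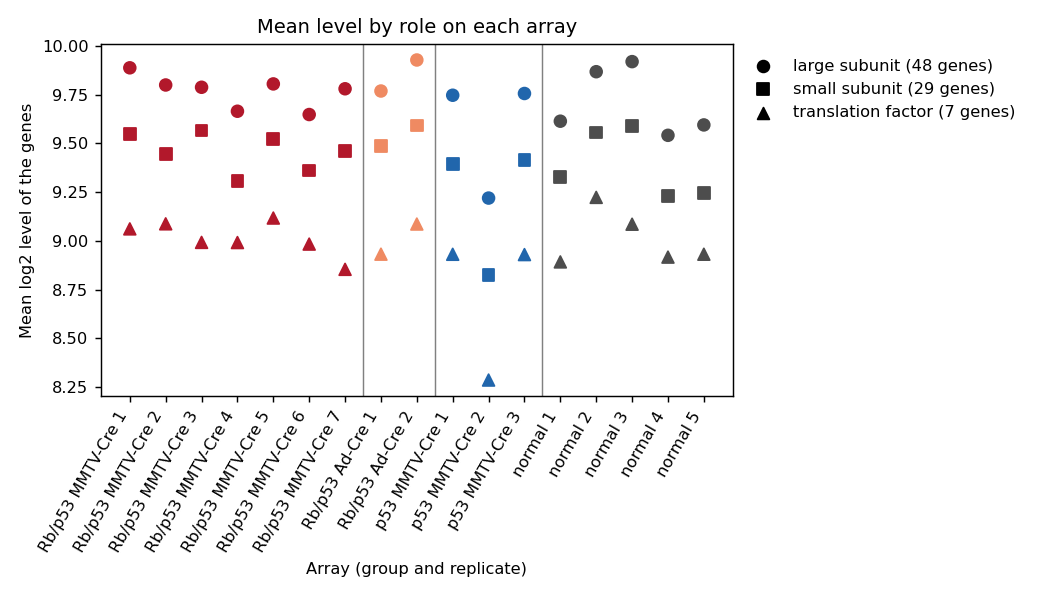
Mean log2 level (y axis) of the large subunit (circles), small subunit (squares) and translation factor genes (triangles) on each of the 17 arrays (x axis), coloured by group. P53 replicate 2 is lowest for all 3 roles (9.22, 8.83 and 8.29), and the other arrays overlap between groups.

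In Rb/p53 tumours against p53 tumours, most members were measured slightly higher and none passed the test. The difference was above 0 for 65 of 84 (77.4%), with a median of 0.22, where all 19938 genes had a median of -0.03 and 45.9% above 0. By limma with Benjamini-Hochberg adjustment over all genes, 0 of 84 members rose and 0 fell at an adjusted p under 0.05; of all genes, 0.0% rose and 0.00502% (1 gene) fell. At an unadjusted p under 0.05, 27 members were higher and 3 (Mrpl28, Mrpl41 and Mrps9) were lower, where 20.6% of all genes passed in either direction and 10.6% were higher. Many genes of this background are dimmer than the members. Without the genes of the lowest 25% by mean level, the genes kept had a median of 0.06, with 56.7% above 0. In that fit 25 members were higher and 3 lower at an unadjusted p under 0.05, and 13.7% of the genes kept were higher. The median difference was 0.19 for the large subunit, 0.22 for the small subunit and 0.22 for the factors, all 7 of which were above 0.

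The excess of higher members was much smaller without p53 replicate 2. The median difference over the members was then 0.04, with 46 of 84 above 0, and the unadjusted test gave 6 higher and 3 lower, against 4.1% and 4.26% of all genes. By role, the median was 0.04 for the large subunit (26 of 48 above 0), 0.04 for the small subunit (15 of 29) and 0.10 for the factors (5 of 7). Without p53 replicate 3, in contrast, the median was 0.32, and 11 members were called higher and 1 lower, where 4.25% of all genes were called higher and 2.56% lower. The 11 were Mrpl10, Mrpl15, Mrpl16, Mrpl39, Mrpl43, Mrpl49, Mrpl57, Mrps6, Mrps17, Mrps27 and Tsfm, and the 1 was Mrps18c. With p53 replicate 3 counted as an Rb/p53 tumour, as its title has it, 15 were called higher and 2 lower (5.58% and 4.67% of all genes), but with replicate 2 left out at the same time 0 were called and the median was 0.06. With the normal arrays added to the fit, Mrps6 and Mrpl57 passed (adjusted p = 0.033 and 0.036 by limma), where 1.21% of all genes were called higher and 0.572% lower.

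**Figure D2:**
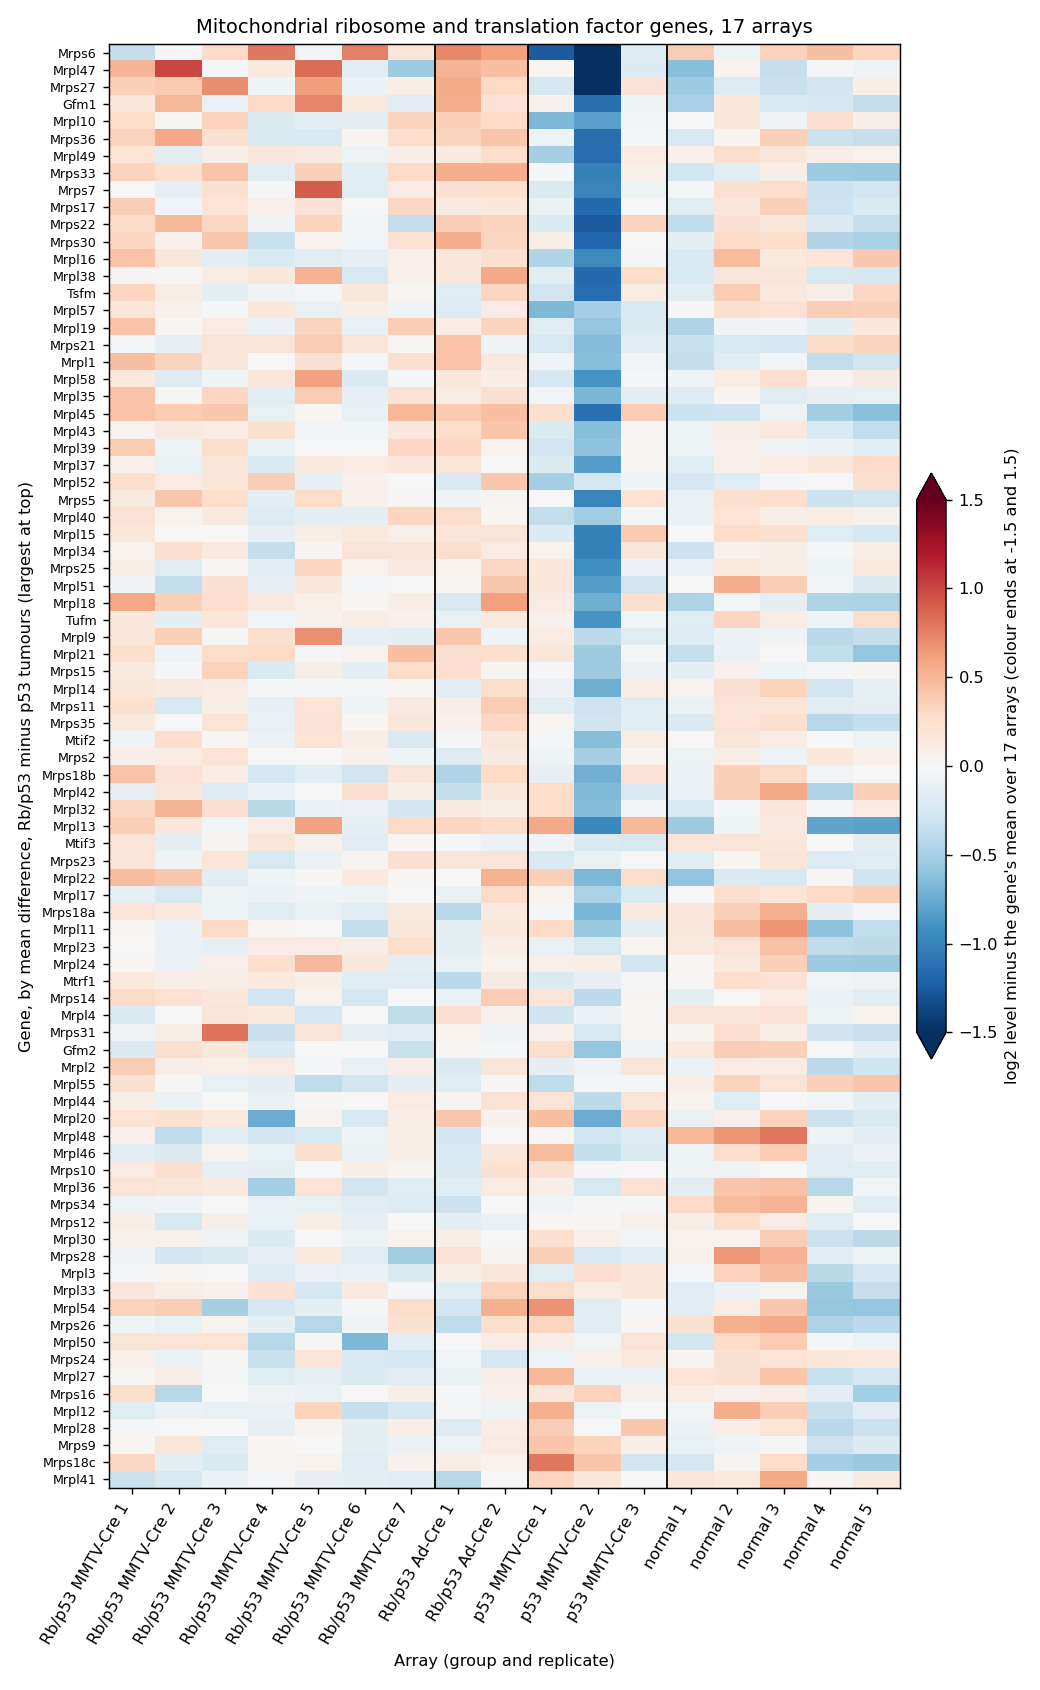
Each row is 1 of the 84 genes, ordered by its difference between Rb/p53 and p53 tumours, and each column 1 array, with lines between the groups; colour gives the log2 level minus the gene's own mean over the 17 arrays. The column of p53 replicate 2 is the darkest blue, with the lowest value of all arrays for 48 genes, and p53 replicates 1 and 3 resemble the other tumours for most genes.

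Few single genes separated the Rb/p53 tumours from all 3 p53 tumours. In the large subunit, Mrpl57, a small protein of the particle also known as Mrp63, was at 9.70 to 10.07 (median 9.96) in the Rb/p53 tumours, 9.22, 9.39 and 9.67 in p53 tumours 1 to 3, and 9.91, 10.13, 10.12, 10.26 and 10.26 in the normal samples. Every Rb/p53 tumour lay above every p53 tumour, by 0.49 ± 0.11 on average (SE; adjusted p = 0.109 by limma), and the difference was 0.47 without p53 replicate 2. Mrpl1, a protein of the large subunit, was at 9.08 to 9.56 (median 9.34) in the Rb/p53 tumours and at 9.04, 8.48 and 9.07 in the p53 tumours. The groups did not overlap, but p53 replicates 1 and 3 lay just under the lowest Rb/p53 tumour (difference 0.46 ± 0.14, adjusted p = 0.163). It was 0.27 without p53 replicate 2. Mrpl19 was at 9.70 to 10.23 (median 9.92) against 9.63, 9.23 and 9.59. Its 2 groups did not overlap either (0.49 ± 0.14, adjusted p = 0.153).

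The small subunit gene Mrps21, the member with the highest signal, completed this set: it was at 11.60 to 12.15 (median 11.91) in the Rb/p53 tumours and at 11.49, 11.08 and 11.57 in the p53 tumours (0.48 ± 0.14, adjusted p = 0.154). These 4 of 84 members (4.76%) had all Rb/p53 tumours above all p53 tumours, where 1.67% of all genes did; 0 had them all below, where 1.47% did. Leaving out p53 replicate 2 also gave 4 members higher (2.39% of all genes) and 1 lower (2.81%).

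The largest difference was that of Mrps6, a small subunit protein. It was at 11.01 to 12.16 (median 11.66) in the Rb/p53 tumours, at 10.12, 8.48 and 11.17 in p53 tumours 1 to 3, and at 11.75, 11.29, 11.71, 11.82 and 11.69 in the normal samples. P53 replicates 1 and 2 lay below every other array and p53 replicate 3 lay among the lowest Rb/p53 tumours. The difference from the p53 tumours was 1.77 ± 0.43 (95% interval 0.83 to 2.70; adjusted p = 0.118) and was 1.04 without p53 replicate 2. In the RefSeq annotation Slc5a3, the gene for a sodium and myo-inositol cotransporter, lies almost entirely (99.95% of its length) within the span of Mrps6, and whether the Mrps6 probes lie outside shared transcript is not given in the sources used here. Slc5a3 has its own probe set, which gave 9.08 to 11.495 (median 10.51) in the Rb/p53 tumours, 9.70, 7.68 and 9.45 in the p53 tumours, and 10.88, 10.69, 10.71, 10.56 and 10.23 in the normal samples. It too was lowest on p53 replicate 2, and its Rb/p53 and p53 groups overlapped. The next largest differences, Mrpl47 (0.88), Mrps27 (0.86), Gfm1 (0.64) and Mrpl10 (0.63), had adjusted p of 0.207, 0.181, 0.199 and 0.154. Without p53 replicate 2 they were at 0.40, 0.34, 0.26 and 0.48. Mrpl47 has a second probe set, on which the difference was 0.19. Those most below 0 were Mrpl41 (-0.33), Mrps18c (-0.30), Mrps9 (-0.29), Mrpl28 (-0.29) and Mrpl12 (-0.24), with adjusted p from 0.172 to 0.332.

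**Figure D3:**
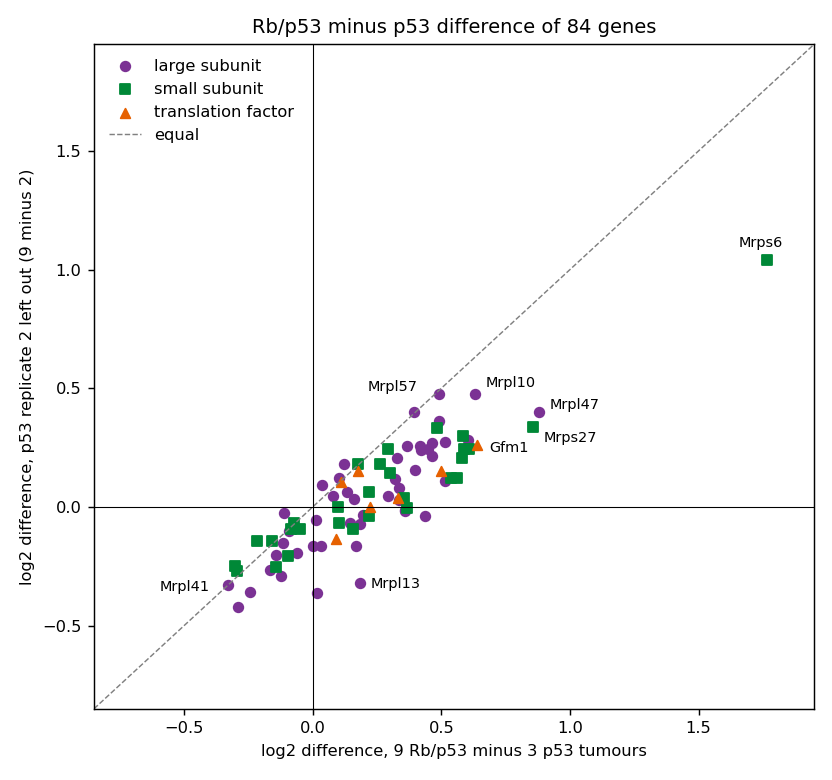
Each point is 1 of the 84 genes, with its log2 difference between 9 Rb/p53 and 3 p53 tumours on the x axis and the same difference with p53 replicate 2 left out on the y axis; circles are large subunit, squares small subunit and triangles factors. Most points lie under the dashed line of equality, the median is 0.22 with and 0.04 without that array, and Mrps6 stays farthest to the right and highest (1.77 and 1.04).

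Among the translation factors too, p53 replicate 2 was the lowest of all arrays for genes that include Tufm, Tsfm, Gfm1 and Gfm2 (8.19 for Gfm2). Tufm, the mitochondrial elongation factor Tu that brings aminoacyl-tRNA to the ribosome, was at 9.95 to 10.26 (median 10.16) in the Rb/p53 tumours, 10.16, 9.22 and 10.05 in the p53 tumours and 9.91, 10.43, 10.21, 10.02 and 10.37 in the normal samples. Only p53 replicate 2 lay outside the common range. The difference between tumour types was 0.33 (95% interval -0.03 to 0.69; adjusted p = 0.262 by limma), and 0.04 without p53 replicate 2. Tsfm, its nucleotide exchange factor, was at 9.26 to 9.76 (median 9.46), 9.15, 8.29 and 9.55, and 9.27, 9.82, 9.58, 9.54 and 9.74 in the same order. Its difference between tumour types was 0.50 (0.05 to 0.95; adjusted p = 0.215), and 0.15 without p53 replicate 2. Against normal tissue the p53 tumours were at -0.60 (adjusted p = 0.054), and at -0.25 without that array. Gfm1, the elongation factor G that moves the ribosome along, was at 9.55 to 10.44 (median 9.92), 9.77, 8.57 and 9.64, and 9.22, 9.87, 9.48, 9.44 and 9.34. It was the one factor measured above normal tissue in the Rb/p53 tumours (0.50, 0.10 to 0.90; adjusted p = 0.060). In the annotation the span of Gfm1 contains the whole of Lxn, a separate gene. Gfm2, which acts in ribosome recycling, the initiation factors Mtif2 and Mtif3 and Mtrf1 differed between tumour types by 0.09, 0.22, 0.18 and 0.11, with adjusted p from 0.297 to 0.743. Without p53 replicate 2 these were -0.14, -0.00, 0.15 and 0.10.

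**Figure D4:**
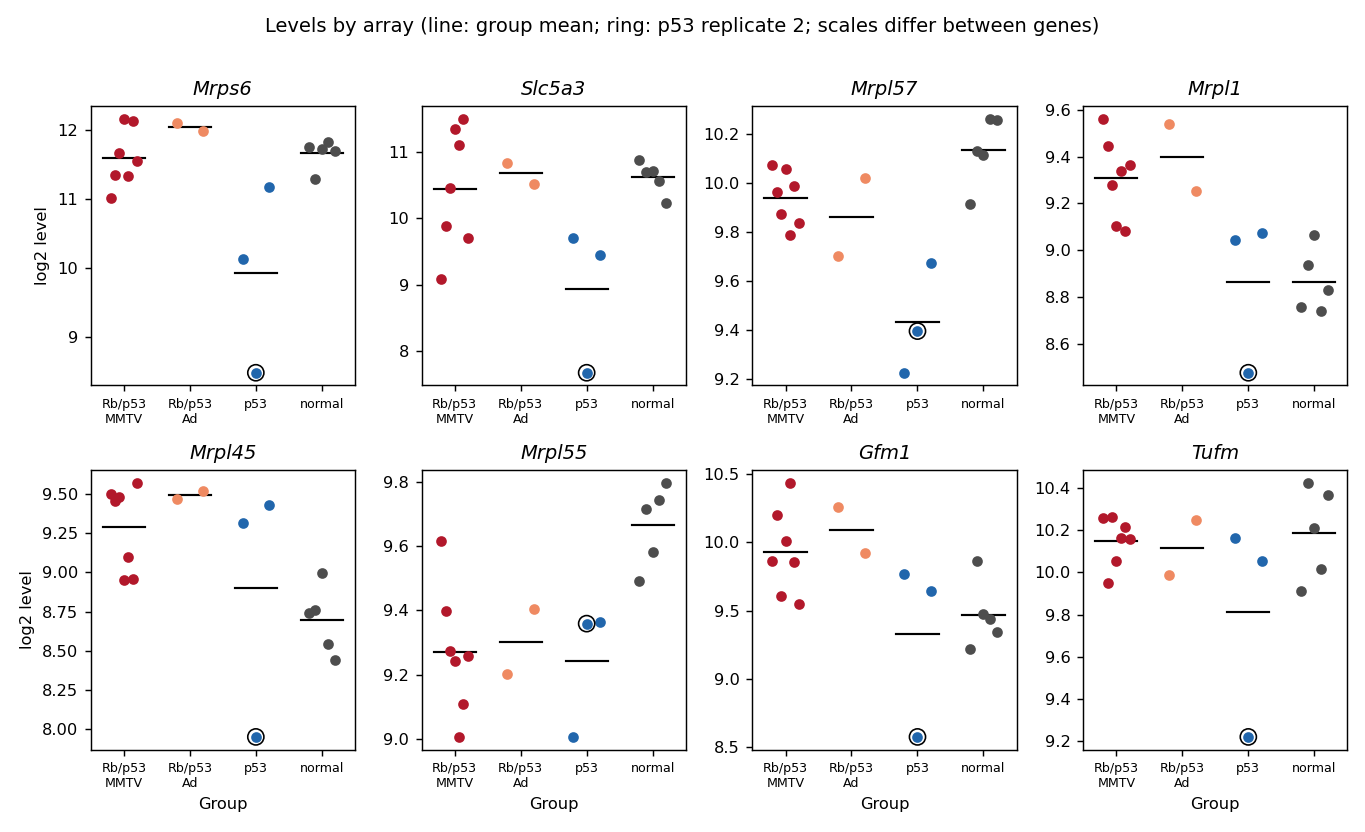
Log2 levels (y axis, scale differing between genes) of 7 members and of Slc5a3 in the 4 groups (x axis); each point is 1 array, lines are group means and the ring marks p53 replicate 2. P53 replicate 2 is the lowest array for Mrps6 (8.48), Slc5a3 (7.68), Mrpl1 (8.48), Mrpl45 (7.95), Gfm1 (8.57) and Tufm (9.22), and Mrpl57 separates all p53 from all Rb/p53 tumours.

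Against normal mammary tissue, 7 members rose and 6 fell in the Rb/p53 tumours (adjusted p under 0.05, limma over all 17 arrays). That is 8.33% and 7.14% of the members, where 14.2% of all genes rose and 13.4% fell. The median difference was 0.06, against 0.03 for all genes, and became -0.00 after a further quantile normalization and -0.05 after cyclic loess, so the group as a whole has no settled direction here. The normal tissue differed in makeup: the mean of 5 adipocyte markers was 12.44 to 13.05 there and 7.24 to 8.49 in tumours, that of 5 luminal markers 11.64 to 11.78 against 7.97 to 11.02, and that of the division markers 7.55 to 10.49 against 8.71 to 11.32. The part of this in the members' differences was not tested.

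Of the 7 that rose, 6 belong to the large subunit. Mrpl45, which lines the exit of the nascent chain, was at 8.95 to 9.57 (median 9.47) in the Rb/p53 tumours and at 8.74, 8.76, 8.998, 8.55 and 8.44 in normal tissue. The groups overlapped only through normal replicate 3, and the difference was 0.64 ± 0.20 (SE; adjusted p = 0.025). Mrpl13 was at 9.61 to 10.36 (median 10.03) against 9.22, 9.69, 9.89, 8.96 and 8.94. Normal replicates 2 and 3 reached into the tumour range (0.63 ± 0.23, adjusted p = 0.048). Mrpl1, at 9.08 to 9.56 against 8.76, 8.94, 9.07, 8.74 and 8.83, was the 1 member whose Rb/p53 tumours all lay above all normal samples (0.46 ± 0.11, adjusted p = 0.0046). The same was true of 7.9% of all genes. Mrpl18 (0.53), Mrpl21 (0.47) and Mrpl9 (0.39) rose with adjusted p of 0.025, 0.0089 and 0.039. Mrps33 was the small subunit gene that rose, from 10.10, 10.22, 10.46, 9.83 and 9.81 in normal tissue to 10.22 to 10.92 (median 10.71) in the tumours (0.56 ± 0.18, adjusted p = 0.026). Its other probe set gave 0.49 (adjusted p = 0.015).

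The 6 that fell were Mrpl48 (-0.49), Mrpl55 (-0.39), Mrpl41 (-0.38), Mrps34 (-0.35), Mrpl17 (-0.28) and Mrps24 (-0.26), with adjusted p from 0.00697 to 0.040. Mrpl41 was at 7.94 to 8.37 (median 8.24) in the tumours and 8.54, 8.51, 8.93, 8.38 and 8.51 in normal tissue. On the probe set used it was the 1 member with all Rb/p53 tumours below all normal samples, as 8.31% of all genes were. Mrpl55 was at 9.01 to 9.62 (median 9.26) against 9.49, 9.72, 9.58, 9.74 and 9.80, and MMTV-Cre replicate 1 was the only tumour inside the normal range. Mrpl48 was at 9.60 to 10.08 (median 9.80) against 10.49, 10.64, 10.78, 9.90 and 9.84. Normal replicates 4 and 5 lay inside the tumour range.

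The calls against normal tissue depended on single arrays. Without normal replicate 4 there were 2 members higher and 4 lower (10.8% and 11.9% of all genes), and without normal replicate 5 also 2 and 4 (12.1% and 12.5%). Mrpl1, Mrpl21, Mrpl41 and Mrpl55 kept their call with any 1 array left out. Mrpl45 lost it without normal replicate 4 or 5, Mrpl18 and Mrps33 without normal replicate 1, 4 or 5, Mrpl48 without normal replicate 1, 2 or 3, and Mrps34 without normal replicate 2 or 3. Mrpl13, Mrpl17, Mrpl9 and Mrps24 lost it for 10, 12, 8 and 8 of the 17 arrays.

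The p53 tumours were compared with the same normal samples, so this comparison shares its controls with the last. Here 1 member rose and 7 fell, 1.19% and 8.33% of the members, where 8.34% of all genes rose and 12.1% fell, and the median difference was -0.20 against 0.09 for all genes. Mrps6 fell most (-1.73 ± 0.41, adjusted p = 0.00695): all 3 p53 tumours, at 10.12, 8.48 and 11.17, lay below the lowest normal sample, at 11.29. Mrpl57 fell by 0.71 (SE 0.12, adjusted p = 0.00041), and again all 3 p53 tumours lay below the lowest normal sample, at 9.91. The other members that fell, Mrpl16 (-0.67), Mrpl49 (-0.63), Mrpl10 (-0.60), Mrpl17 (-0.44) and Mrpl55 (-0.42), are all of the large subunit, with adjusted p from 0.021 to 0.029. Mrps9 rose: it was at 9.16, 9.07 and 8.84 in the p53 tumours and at 8.63, 8.68, 8.72, 8.43 and 8.54 in normal tissue, without overlap (0.42 ± 0.10, adjusted p = 0.0085). In the Rb/p53 tumours, at 8.56 to 8.91, its difference from normal tissue was 0.13 (adjusted p = 0.279).

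Without p53 replicate 2 the balance of these calls was different, with 5 higher and 3 lower (10.4% and 10.8% of all genes) and a median of 0.01. Mrpl13 (0.95), Mrpl45 (0.68), Mrpl22 (0.58), Mrpl28 (0.49) and Mrps9 (0.40) were then called higher, and Mrps6 (-1.01), Mrpl57 (-0.69) and Mrpl55 (-0.48) lower. Mrpl10, Mrpl16, Mrpl17 and Mrpl49 lost their call. Of the other arrays, leaving out p53 replicate 3 gave 2 higher and 12 lower (13.7% and 13.2% of all genes), and leaving out normal replicate 2 gave 1 and 3 (5.83% and 10.4%). Mrpl10, Mrpl16, Mrpl49 and Mrpl55 also lost their call without p53 replicate 1 or normal replicate 2, Mrpl10 and Mrpl55 without normal replicate 4, and Mrpl16 and Mrpl55 without normal replicate 5. Mrps6, Mrpl57 and Mrps9 kept theirs with any 1 array left out.

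**Figure D5:**
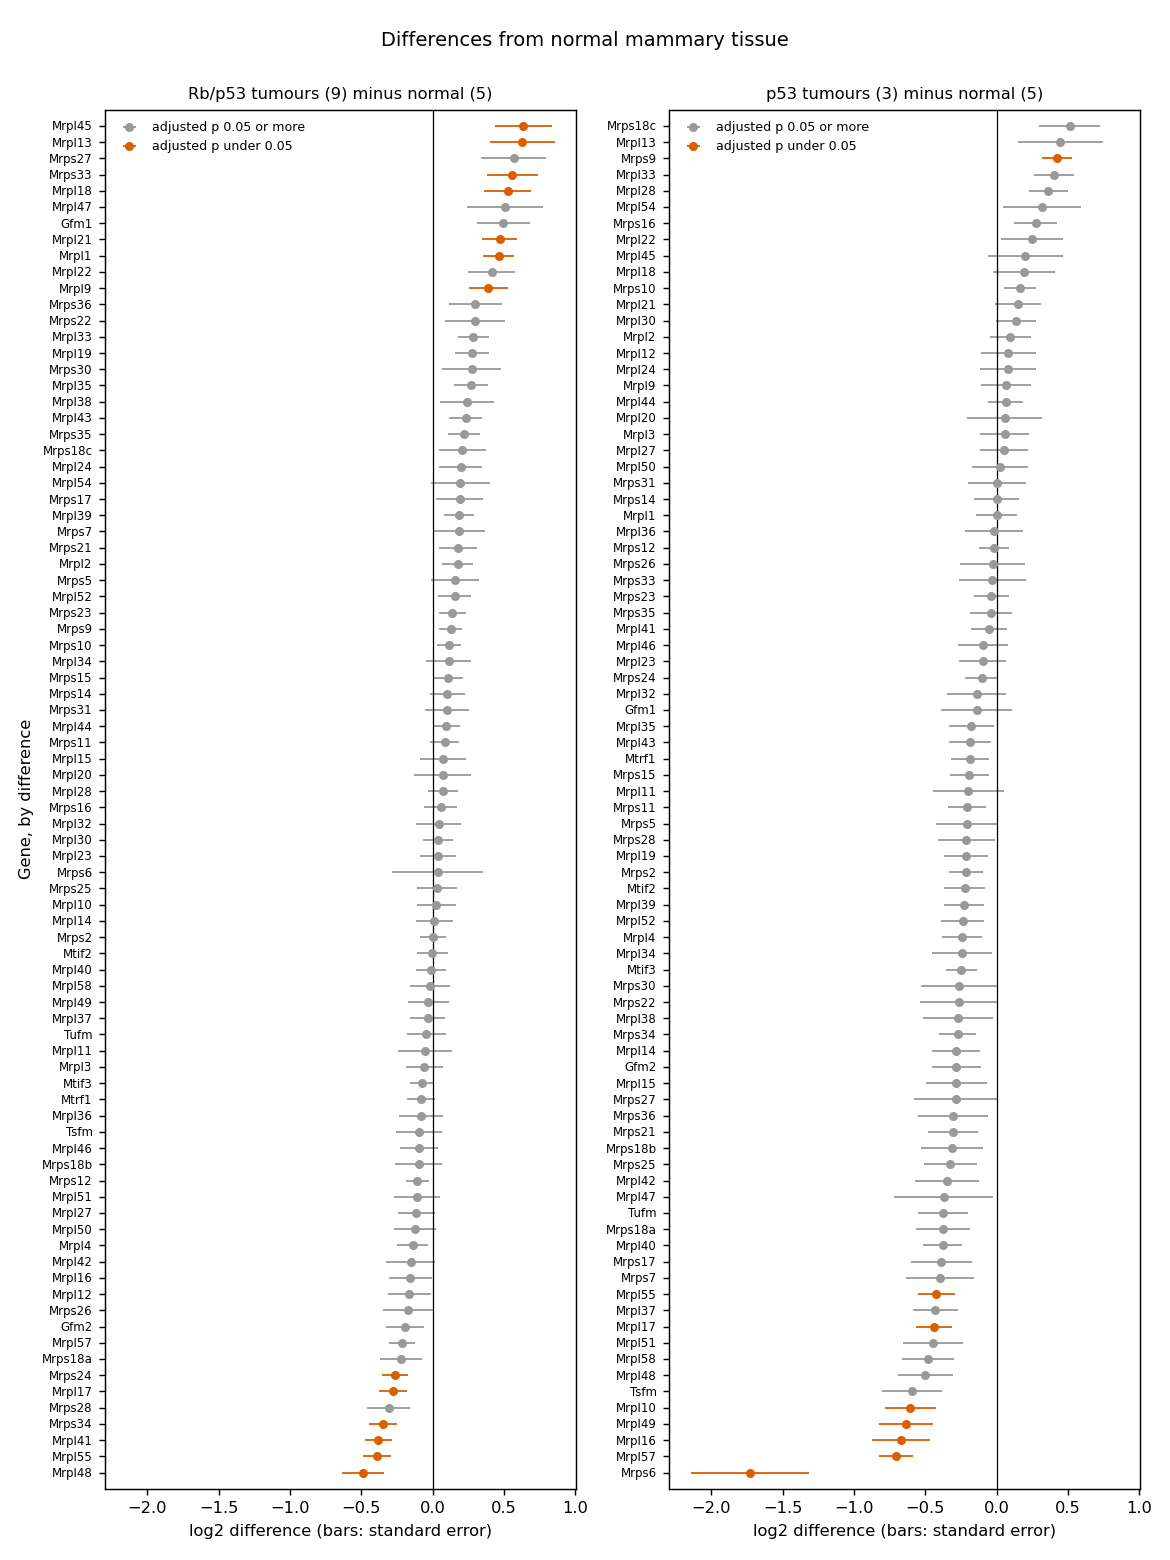
Log2 difference from normal mammary tissue (x axis; bars are standard errors) of each of the 84 genes (y axis, ordered by difference within each panel) in Rb/p53 tumours (left) and p53 tumours (right), with adjusted p under 0.05 in orange. On the left 7 genes are called higher and 6 lower, and on the right 1 higher and 7 lower, with Mrps6 lowest at -1.73; both panels share the 5 normal samples.

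Set side by side, the values of some called members differ between the tumour types as follows. Mrpl1, Mrpl21 and Mrps33 were at 0.46, 0.47 and 0.56 in Rb/p53 tumours and at -0.00, 0.15 and -0.03 in p53 tumours, relative to the same normal samples. The p53 values rest in part on p53 replicate 2: Mrpl1 was at 9.04, 8.48 and 9.07 and Mrpl21 at 8.81, 8.11 and 8.63 in p53 tumours 1 to 3. The other members that rose had p53 means above the normal means: Mrpl13 (9.79 against 9.34), Mrpl45 (8.90 against 8.70), Mrpl18 (10.02 against 9.83) and Mrpl9 (9.11 against 9.05). Mrpl55 and Mrpl17 fell in both, by 0.39 and 0.28 in the Rb/p53 and by 0.42 and 0.44 in the p53 tumours. Mrps6, Mrpl10 and Mrpl49 were at 0.04, 0.03 and -0.03 in the Rb/p53 tumours. The test of each difference between tumour types is the Rb/p53 against p53 comparison above, in which no member passed.

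Because several of the called members have a promoter sequence in the RefSeq table (GRCm38.p6), the windows of 300 bases from 250 before to 50 after each gene's start were searched on both strands for short motifs of factors known to act on nuclear genes of mitochondrial function or on targets of Rb. A window was at hand for 74 of the 84 members and for 15614 of all measured genes. The core of the ETS family sites bound by GABP, CCGGAA, was in a window of 42 of 74 members (56.8%), against 22.0% of measured genes and 14.9% of all 32851 windows. Its longer form CCGGAAGT, which contains the core, was in 14 (18.9%, against 6.01% and 3.89%). The NRF1 motif GCATGCGC was in 8 (10.8%, against 4.27% and 2.71%), and the YY1 motif AAGATGGCG also in 8 (10.8%, against 2.29% and 1.40%). An E2F motif, TTCGCGC or TTGGCGC, was in 10 (13.5%, against 6.11% and 3.89%), and the E-box CACGTG bound by Myc in 5 (6.76%, against 9.50% and 7.15%). Mean GC content was 58.65% for the members' windows and 57.2% for those of measured genes. A match is a run of letters and not a bound site, and binding was not measured.

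Of the 13 members called between Rb/p53 tumours and normal tissue, those that hold an E2F, NRF1, YY1 or longer ETS motif before their only listed start are shown to let the letters be read, with the 250 bases before it, 5′ to 3′ on the gene's strand, with those motifs in capitals. Mrpl45, Mrpl18, Mrpl21 and Mrpl9 rose and Mrpl17 fell. Mrpl1 and Mrps33, which also rose, and Mrpl41, Mrpl55 and Mrps24, which fell, hold none of these motifs in those 250 bases. The other members with an E2F motif in their window (Mrpl12, Mrpl24, Mrpl35, Mrpl49, Mrps14, Mrps18c and Mrps23) were not called in this comparison. Whether a motif goes with a change was not tested. Mrpl45 (chr11:97315466-97315715, + strand) has an E2F motif that begins 32 bases before the start, read on the other strand. Mrpl18 (chr17:12916092-12916341, - strand) has the longer ETS motif at 240 and an E2F motif at 187, the latter on the other strand. Mrpl21 (chr19:3282792-3283041, + strand) has an E2F motif at 8. In Mrpl9 (chr3:94443086-94443335, + strand) NRF1 motifs on both strands overlap, from 28 bases before the start, and in Mrpl17 (chr7:105811088-105811337, - strand) 1 lies at 11 on the other strand.
Mrpl45: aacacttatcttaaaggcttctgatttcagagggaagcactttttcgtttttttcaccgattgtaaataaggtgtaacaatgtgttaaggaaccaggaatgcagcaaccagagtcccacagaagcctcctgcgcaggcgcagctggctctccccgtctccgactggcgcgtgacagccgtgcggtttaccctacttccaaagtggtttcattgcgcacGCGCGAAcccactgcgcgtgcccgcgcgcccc
Mrpl18: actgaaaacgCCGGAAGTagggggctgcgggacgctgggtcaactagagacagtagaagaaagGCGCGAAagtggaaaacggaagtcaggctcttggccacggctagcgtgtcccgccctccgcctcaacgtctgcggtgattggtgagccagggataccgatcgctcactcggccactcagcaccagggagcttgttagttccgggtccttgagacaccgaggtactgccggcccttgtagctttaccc
Mrpl21: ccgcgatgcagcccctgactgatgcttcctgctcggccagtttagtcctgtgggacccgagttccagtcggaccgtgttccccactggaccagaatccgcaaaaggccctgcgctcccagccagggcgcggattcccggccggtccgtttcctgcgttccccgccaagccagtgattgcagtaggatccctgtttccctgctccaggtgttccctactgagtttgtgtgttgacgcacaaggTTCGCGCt
Mrpl9: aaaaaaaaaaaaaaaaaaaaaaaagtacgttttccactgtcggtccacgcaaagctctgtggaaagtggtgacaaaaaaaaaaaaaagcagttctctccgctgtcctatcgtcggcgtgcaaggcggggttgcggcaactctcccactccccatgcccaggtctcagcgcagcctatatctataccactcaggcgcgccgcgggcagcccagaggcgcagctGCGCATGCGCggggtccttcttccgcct
Mrpl17: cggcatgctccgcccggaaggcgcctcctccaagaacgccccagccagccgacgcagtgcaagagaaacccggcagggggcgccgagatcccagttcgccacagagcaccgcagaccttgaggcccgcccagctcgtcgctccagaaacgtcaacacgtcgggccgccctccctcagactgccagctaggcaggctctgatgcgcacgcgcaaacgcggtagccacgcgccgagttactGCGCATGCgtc
Genes whose products may bind such motifs were measured too. Gabpa, a subunit of GABP, rose by 0.39 (adjusted p = 0.023) and Nrf1 by 0.26 (adjusted p = 0.044) in Rb/p53 tumours against normal tissue. Neither passed in p53 tumours against normal tissue (0.25 and 0.20) or between the tumour types (0.14 and 0.07). Without p53 replicate 2 both passed in p53 tumours against normal tissue (0.48 and 0.36, adjusted p = 0.019 and 0.032).

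The coactivators and other regulators of mitochondrial biogenesis were measured in the same way, and of 8 regulators, Rb1 included, 2 rose and 3 fell in the Rb/p53 tumours against normal tissue, and 0 rose and 2 fell in the p53 tumours (2 and 3 without p53 replicate 2). Ppargc1a, the coactivator PGC-1 alpha, fell by 1.51 in the Rb/p53 tumours (adjusted p = 0.00049) and was at -2.17 in the p53 tumours (adjusted p = 0.00033) against normal tissue, where it was at 8.08 to 9.02. Adipocyte markers moved the same way, as given above. Its relative Ppargc1b fell in the Rb/p53 tumours (-0.69, adjusted p = 0.018). Myc was at 10.92 to 12.68 in the Rb/p53 tumours, 11.74, 8.83 and 11.75 in the p53 tumours and 10.49 to 11.31 in normal tissue, and passed in no comparison. The difference between tumour types was 0.86, and p53 replicate 2 was the lowest array of all for Myc; without it the difference was -0.11. Tfam, the packaging and transcription factor of the mitochondrial genome, and Esrra passed in none.

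Other genes of mitochondrial gene expression were counted from lists of known members. Of the 4 measured mitochondrial ribosome proteins under other symbols, Dap3, a small subunit protein, rose in the Rb/p53 tumours against normal tissue: it was at 10.29 to 10.89 there and at 9.92, 10.18, 10.21, 9.56 and 9.82 in normal tissue (0.65, adjusted p = 0.014). Of 24 assembly and rRNA modification genes, 3 rose (Nsun4, Ddx28 and Rcc1l, by 0.47, 0.40 and 0.27) and Mtg1 fell (-0.50) in that comparison, and 1 rose (Ddx28) and 4 fell (Tfb1m, Eral1, Mpv17l2 and Rpusd3) in p53 tumours. Of 16 mitochondrial aminoacyl-tRNA synthetases, which charge the tRNAs, 0 rose and 4 fell in each comparison with normal tissue; Iars2, Sars2 and Ears2 fell in both, by 0.60, 0.38 and 0.35 in the Rb/p53 and by 0.55, 0.73 and 0.46 in the p53 tumours. Of 11 further factors, Gatc, a subunit of the amidotransferase that makes glutaminyl-tRNA, fell in both (-0.64 and -1.10), and Mrrf (-0.64), Gatb (-0.54) and Oxa1l (-0.52) fell in the p53 tumours. The same lists were counted without p53 replicate 2, an alternative chosen after seeing the data. The p53 tumours then had 1 assembly gene higher and 3 lower, 0 synthetases higher and 3 lower, and 1 of the further factors (Lrpprc, 0.58) higher and 2 lower. Tfb1m, Hars2, Mrrf and Gatb lost their call (-0.48, -0.31, -0.30 and -0.46).

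Import genes rose where they changed. Of 22 genes of protein import into mitochondria, 5 rose in the Rb/p53 tumours against normal tissue, namely Timm8a1 (0.92), Tomm20 (0.75), Tomm22 (0.65), Timm17b (0.60) and Tomm70a (0.54), and 0 fell. In the p53 tumours 0 of 22 passed with all 3 arrays, but 6 rose without p53 replicate 2: Timm8a1 (1.23), Tomm22 (0.83), Tomm20 (0.78), Tomm70a (0.73), Timm17a (0.73) and Hspa9 (0.54). Between the tumour types 0 of any of these lists passed. Of 9 genes of mitochondrial genome transcription and replication, Twnk rose (0.38) and Polg2 (-0.42) and Tfb2m (-0.40) fell in the Rb/p53 tumours. The background for these lists is 14.2% of all genes higher and 13.4% lower in the Rb/p53 tumours, and 8.34% and 12.1% in the p53 tumours (10.4% and 10.8% without p53 replicate 2).

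Within the Rb/p53 tumours, no member was called between the routes of deletion. Between the 2 Ad-Cre and 7 MMTV-Cre tumours, 0 of 84 members passed by limma, where 0.00502% of all genes did, and 0 had an unadjusted p under 0.05, where 2.07% of all genes did. The members' median difference was 0.07 (60 of 84 above 0), against -0.02 for all genes, and the 2 arrays that limit it differed, with member means of 9.60 and 9.74 against 9.49 to 9.70. Without Ad-Cre replicate 1 the median was 0.15, and without replicate 2 it was 0.02. All Ad-Cre values lay above all MMTV-Cre values for 4 members (4.76%, against 1.98% of all genes), Mrpl3, Mrpl15, Mrpl43 and Mrps33, and below for 0 (3.05%). Mrps33 was at 10.91 and 10.92 against 10.22 to 10.80 (difference 0.35, 95% interval -0.22 to 0.92). Mrps6 had the largest difference, 0.44, with an interval of -0.70 to 1.59, so a difference of that size could not be told from none with 2 tumours. Both Ad-Cre tumours are transplants; against the 5 MMTV-Cre transplants alone the median was 0.08 and again 0 were called.

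For some members the measurement itself is uncertain. The probe sets used for Mrpl27, Mrpl41, Mrpl48, Mrpl51, Mrps33 and Tufm have numbers among those of genes on another chromosome, with 0 or 1 of their 30 nearest annotated neighbours on the gene's own, so they may read a copy elsewhere in the genome. Mrpl48 has only that probe set, so its fall rests on it. For Tufm the probe set on its own chromosome gave 9.81 to 10.14 in the Rb/p53 tumours, 10.03, 9.12 and 9.94 in the p53 tumours and 9.78, 10.25, 10.09, 9.87 and 10.16 in normal tissue, and differences of 0.31, -0.02 and -0.34 in the 3 genotype comparisons, near those of the one used (0.33, -0.04 and -0.38). For Mrpl41 it gave -0.20 in Rb/p53 tumours against normal tissue (adjusted p = 0.036 by limma). There the 2 groups overlapped, with Ad-Cre replicate 2 at 8.01 and normal replicate 2 at 7.96. For Mrpl51 the 2 probe sets differed: the one used gave -0.11 and -0.44 against normal tissue, and the other gave -0.46 (adjusted p = 0.032) and -0.85 (adjusted p = 0.0054). Besides Mrps6, 21 more members overlap another protein-coding gene in the annotation, among them Mrpl18 with Tcp1, Mrpl57 with Ska3 and Mtif3 with Gtf3a. Whether their probes lie in the shared part is not given in the sources used here.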

How the data were processed

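Total RNA of 17 samples was measured on 1 Affymetrix array each. Per the submitters' processing notes, the authors made the deposited log2 values by robust multi-array averaging (RMA) in Partek 5.6; the sources used here name no array batch or filter. The deposited log2 table holds 35556 probe sets, of which GEO's platform annotation pairs 21789 with 1 gene symbol, 1621 with several and 12146 with none. For each of 19938 genes the single-symbol probe set with the highest mean was kept. Groups were compared with limma 3.58.1 (lmFit and eBayes, R 4.3.3), with Benjamini-Hochberg adjustment over all genes and a threshold of 0.05. Rb/p53 against p53 and Ad-Cre against MMTV-Cre were fitted on the 12 tumour arrays, and both comparisons with normal tissue on all 17. The scripts were tested on simulated data with independent noise for each gene and no outlying array. That test does not cover an array such as p53 replicate 2. Promoters are RefSeq's (GRCm38.p6).

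The members and gene lists were chosen with earlier results of these data known. Named members were the 7 factors, every member past the threshold (up to 15 in a direction), the 5 with the largest difference in a direction where fewer passed, members whose groups do not overlap, and those of extreme level or spread (3 each); a further rule, for probe sets of opposite sign in a called difference, named none, and Mrpl51 was named after its values were seen. Alternatives were other normalizations, variance models, array weights, a filter on dim genes, other probe sets, other sets of arrays and each array left out in turn. The number of arrays limits the precision.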

Additional observations from a re-analysis of the deposited data

Results flagged for a closer look

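Of 94 groups of 4 to 10 arrays examined for a value far from the others, 2 gave one, and chance gives about 1 in 20. Mrpl12, a large subunit protein also known to bind the mitochondrial RNA polymerase, was at 10.20 in MMTV-Cre Rb/p53 replicate 5, while the other 6 MMTV-Cre tumours lay between 9.53 and 9.79. Mrps6 was at 11.29 in normal replicate 2, while the other 4 normal samples lay between 11.69 and 11.82.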

How the results depend on the processing

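No paired analysis was possible because the labels give no replicate numbers shared between groups. Between Rb/p53 and p53 tumours, the members called were 0 to 12 with 1 array left out (12 without p53 replicate 3), 2 when the fit held all 17 arrays, and 17 when p53 replicate 3 was counted as an Rb/p53 tumour, and the median difference was 0.04 to 0.34 with 1 array left out. The median was 0.08 with array weights (53 of 84 above 0), 0.19 after a further quantile normalization and 0.17 after cyclic loess. For Rb/p53 tumours against normal tissue the count was 13, with 6 to 17 when 1 array was left out, 4 with a difference of at least 0.5 required and 8 with MMTV-Cre tumours alone. Array weights gave 12 higher and 7 lower. The median was 0.03 to 0.12 with 1 array left out, -0.00 after a further quantile normalization and -0.05 after cyclic loess. For p53 tumours against normal tissue it was 8, with 4 to 14 when 1 array was left out, 5 with a difference of at least 0.5 required, 13 after cyclic loess, 2 when only the compared arrays were fitted and 14 when p53 replicate 3 was moved, and the median was -0.28 to 0.01 with 1 array left out. Between Ad-Cre and MMTV-Cre tumours it was 0 throughout, and the median was 0.02 to 0.15 with 1 array left out. Beyond the settings that drop or add arrays or require a larger difference, the cause was not tested.

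Of 21 calls of single members, 2 held under every alternative tried, those of Mrps6 and Mrpl57 in p53 tumours against normal tissue. The alternative that requires a difference of at least 0.5 ends every call with a smaller difference by its own rule. In Rb/p53 tumours against normal tissue, Mrpl1, Mrpl21, Mrpl41 and Mrpl55 lost their call only there. Over 4692 values of named members under alternatives, 4515 stayed on their side of the threshold, of which 200, none of them called, changed sign; 103 lost a call and 74 gained one. No called value changed sign. Using the probe set with the lower mean, an alternative chosen after seeing the data, gave 0, 14, 9 and 0 members called in the 4 comparisons.

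With 3 p53 and 2 Ad-Cre tumours the arrays limit what can be called, and p53 replicate 2 carries most of the members' median difference between tumour types (0.22 with it, 0.04 without). The labels of p53 replicate 3 conflict.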

Other observations

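Mrps18a, Mrps18b and Mrps18c are paralogs, and the first and second of them were named after their values were seen, to set beside Mrps18c. Mrps18c was at 10.51, 10.13 and 9.44 in p53 tumours 1 to 3, at 9.49 to 10.03 (median 9.77) in the Rb/p53 tumours and at 9.46, 9.76, 9.99, 9.21 and 9.16 in normal tissue. It was thus highest in p53 tumours 1 and 2, while p53 replicate 3 lay below every Rb/p53 tumour. Mrps18a was at 9.84, 9.18 and 10.004 in the p53 tumours and 9.44 to 10.06 in the Rb/p53 tumours, and Mrps18b at 10.48, 9.88 and 10.82 against 10.15 to 11.03. For these, p53 replicate 2 was the lowest of the 12 tumours. None of the 3 passed in any comparison with all arrays in their labelled groups (adjusted p by limma at least 0.0977). Mrps18c passed without p53 replicate 3, at -0.60 between Rb/p53 and p53 tumours (adjusted p = 0.041) and 0.81 in p53 tumours against normal tissue (adjusted p = 0.0089), and with that array moved to the Rb/p53 tumours, at -0.62 (adjusted p = 0.031) and 0.81 (adjusted p = 0.0083).

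The probe set shared by Mrpl53 and Ccdc142, which cannot be given to either gene, was at 8.63 to 8.92 in the Rb/p53 tumours, 8.72, 8.79 and 8.497 in the p53 tumours and 8.98, 8.89, 9.05, 8.48 and 8.57 in normal tissue, so the 3 groups overlapped.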
